A study of Mus musculus with 6 samples.

Results

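Macrophages and the blood monocytes that replenish them are known by a set of genes, some of which other cells of a tumour also make. Here 32 such genes were taken from the 55357 genes of the deposited table, by symbol. Each symbol occurred once, and 30 of the 32 had a mean of at least 1 TPM (a level scaled by transcript length and library total) over the 6 tumours and were tested. The tumours grew under the skin of C57BL/6J mice from 250000 injected KPC1242 cells, a mouse line labelled as pancreatic ductal adenocarcinoma (PDAC). The FA group (3 tumours) came from mice given 2 mg of folinic acid, a reduced folate, by daily gavage from day 8 to day 12, the PBS group (3 tumours) from mice given phosphate-buffered saline on the same days, and every tumour was taken on day 14. All hosts therefore carried the same transplanted line under the skin rather than in the pancreas. The labels give no age or sex, and do not say whether each tumour came from its own mouse, so errors and p-values measure the spread between these tumours, which may be technical.

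Monocytes leave the blood by the chemokine receptor CCR2 and mature in the tumour under colony-stimulating factor 1, whose receptor is CSF1R. As they mature they lose Ly6C and gain F4/80 (Adgre1), the complement component C1q and scavenger receptors. Macrophages that clear dying cells and lipids carry TREM2, which signals through the adaptor TYROBP. Interleukin-4 and interleukin-13, acting through STAT6, induce a further set that includes Retnla, Chil3, Mrc1 and Mgl2. PU.1, encoded by Spi1, is the transcription factor on which the whole lineage depends.

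The genes were described in 6 groups: core surface markers, signalling and effector genes, monocyte-like genes, resident-like genes, lipid-associated genes, and alternatively activated lectins and secreted products. All 6 defining markers of mononuclear phagocytes (Adgre1, Csf1r, Cd68, Fcgr1, C1qa and Mertk) were above 3 TPM in every tumour. Some members are also made by other cells. Apoe and Gpnmb are made by many non-leukocyte cells, Lyz2 and Itgam also by neutrophils, and Clec10a and Mgl2 also by dendritic cells. These examples are not a full list, and which cells supplied each member, Cd14 and Retnla included, was not tested.

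The RefSeq promoter table (build GRCm38.p6) held 26 of the 32 genes, with 30 windows, some of which overlap within a gene. Adgre1, C1qa, Cd14, Clec10a, Csf1r and Tyrobp had no entry. The 250 bases before each start were searched on both strands for the PU.1 core GAGGAA, which 17 of the 30 windows (15 of the 26 genes) held, against 23.3% of all 32851 windows of that length. The longer form GAGGAAGT, which contains the first, was in 5 windows, against 2.44% of all. The STAT6 word, TTC and GAA with any 4 bases between them, was in 2 windows (Ms4a7 and Retnla), against 5.85% of all, and the C/EBP word TTGCGCAA was in 0 windows, against 0.164%. A match describes the letters only. The bases directly before the start are shown for 4 genes that followed the common pattern described below (C1qb, Laptm5, Fcgr1 and Trem2). These were picked because they hold the PU.1 core. A further 3 genes that departed from the pattern are shown (Retnla, Cybb and Cx3cr1). Other genes ran the other way. Fcer1g, Lyz2 and Ccr2 followed the pattern closely without the core, and Pf4 and Mgl2 hold it but followed less closely. Whether the core goes with the pattern was not tested. Capitals mark GAGGAA or its reverse complement TTCCTC and, in Retnla, ACTTCCTC and the STAT6 spacing. Each run is written 5′ to 3′ on the strand of the gene, from chr4:136886201-136886300 (minus strand), chr4:130913216-130913315 (plus strand), chr3:96293970-96294069 (minus strand), chr17:48346301-48346400 (plus strand), chr16:48842359-48842608 (plus strand), chrX:9469325-9469424 (minus strand) and chr9:120068297-120068396 (minus strand), in that order.
C1qb: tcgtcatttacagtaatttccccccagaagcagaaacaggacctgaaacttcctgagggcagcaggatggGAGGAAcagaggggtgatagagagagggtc
Laptm5: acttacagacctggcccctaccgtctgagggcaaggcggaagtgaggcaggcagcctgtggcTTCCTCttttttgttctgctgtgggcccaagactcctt
Fcgr1: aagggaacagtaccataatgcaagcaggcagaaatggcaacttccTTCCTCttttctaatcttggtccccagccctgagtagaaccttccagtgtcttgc
Trem2: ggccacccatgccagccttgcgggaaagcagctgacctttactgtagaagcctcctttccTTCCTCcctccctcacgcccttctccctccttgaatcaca
Retnla: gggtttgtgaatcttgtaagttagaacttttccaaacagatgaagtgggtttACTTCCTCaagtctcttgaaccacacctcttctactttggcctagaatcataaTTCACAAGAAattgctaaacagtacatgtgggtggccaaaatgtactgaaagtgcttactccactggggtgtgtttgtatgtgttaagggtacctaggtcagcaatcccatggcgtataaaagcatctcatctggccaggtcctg
Cybb: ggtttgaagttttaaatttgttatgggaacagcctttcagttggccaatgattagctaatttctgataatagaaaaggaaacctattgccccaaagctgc
Cx3cr1: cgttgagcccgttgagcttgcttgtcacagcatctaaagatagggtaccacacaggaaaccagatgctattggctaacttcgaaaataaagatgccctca

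Before the comparison of treatments, 1 tumour has to be named. FA replicate 3 stood apart from the others over all tested genes, with correlations across genes of 0.949 to 0.968 with the other 5 tumours, against 0.981 to 0.987 among those 5. Genes are not independent replicates, and depth is unknown because TPM keeps none. Stromal, vascular and muscle markers were highest in the same tumour. The summed level of 6 fibroblast markers was 6467 TPM there, against 1879 to 2337 TPM in the other FA tumours and 1810 to 3496 TPM in PBS tumours. Group differences are therefore set beside the same without it, for all tested members in the plot of differences.

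FA tumours had the higher average of the members, and the excess lay in FA replicate 3. The summed level of the 32 genes was 2445, 2786 and 4660.0 TPM in FA replicates 1 to 3 and 2955, 2780 and 2595 TPM in PBS replicates 1 to 3. FA replicate 1 thus had the lowest sum and FA replicate 3 the highest of the 6, and the groups overlapped. Of the 30 tested members, 26 had their highest value in FA replicate 3 and 1 (Cd14) its lowest. Over all 15023 genes tested, those shares were 29.3% and 37.3%. The level in FA replicate 3 was at least 1.5 times the median of the other 5 tumours for 22 members, against 11.5% of all genes, and the median of that ratio was 1.80 over the members and 0.97 over all genes. In whole-tumour RNA, fewer or more cells of a type and less or more RNA per cell cannot be told apart.

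**Figure D1:**
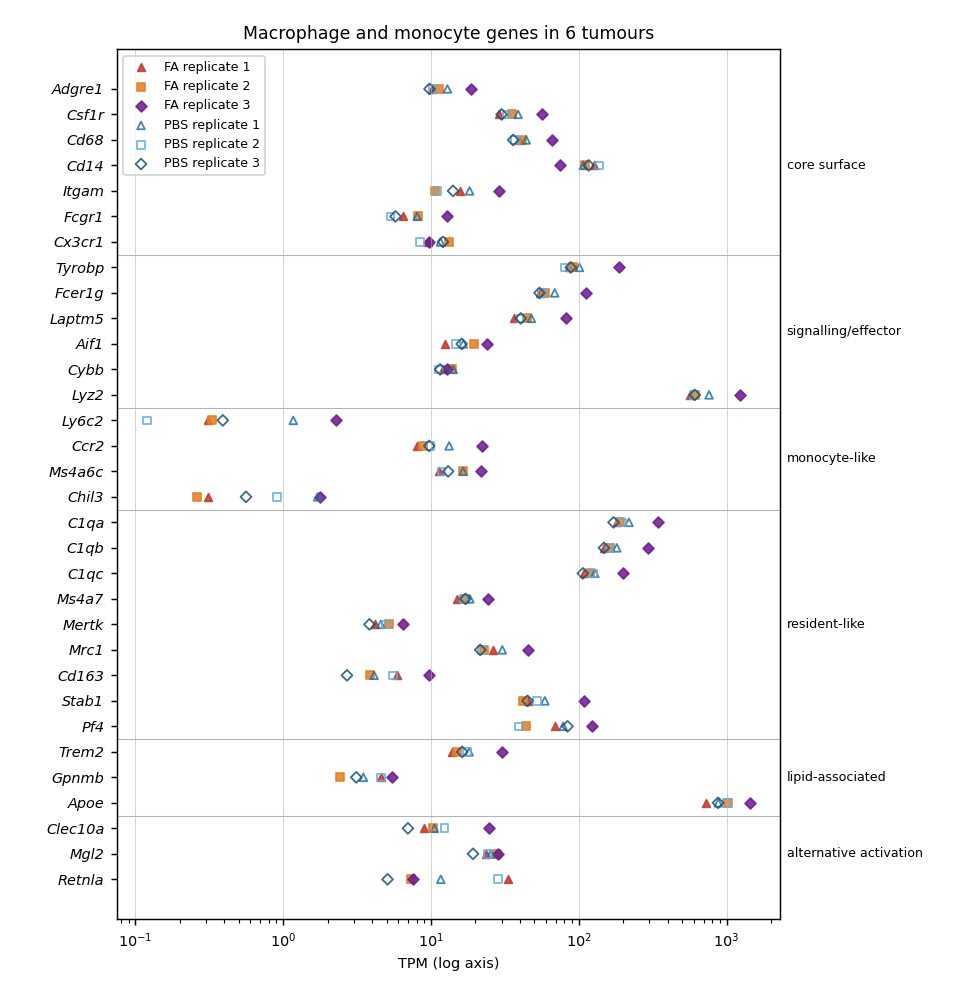
TPM of each of the 32 genes in each tumour on a log axis, in the 6 groups; filled symbols are FA and open symbols PBS tumours. FA replicate 3 lies to the right of the other 5 for most genes, but not for Cd14, Cx3cr1, Cybb or Retnla.

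No member was called. By limma on log2(TPM + 1), which makes differences of low genes smaller, 0 of the 30 members were higher in FA tumours and 0 were lower, with adjusted p-values cut at 0.05, where the background over all 15023 genes was also 0% in each direction. At an unadjusted p under 0.05 there were 0 members, against 1.28% of all genes, and the smallest unadjusted p of a member was 0.137 by limma. The adjusted p of every member was 1. The log2 difference was above 0 for 29 of 30 members, against 50.7% of all genes, and its median was 0.20 over the members and 0.00 over all genes. Without FA replicate 3 it was above 0 for 9 of 30 members, against 54.9% of all genes, and the median became -0.04. Without that tumour 0 members were called, where 0.00666% of all genes were. For 0 members did all FA tumours lie above all PBS tumours or all below, where 2.48% and 2.22% of all genes did so.

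**Figure D2:**
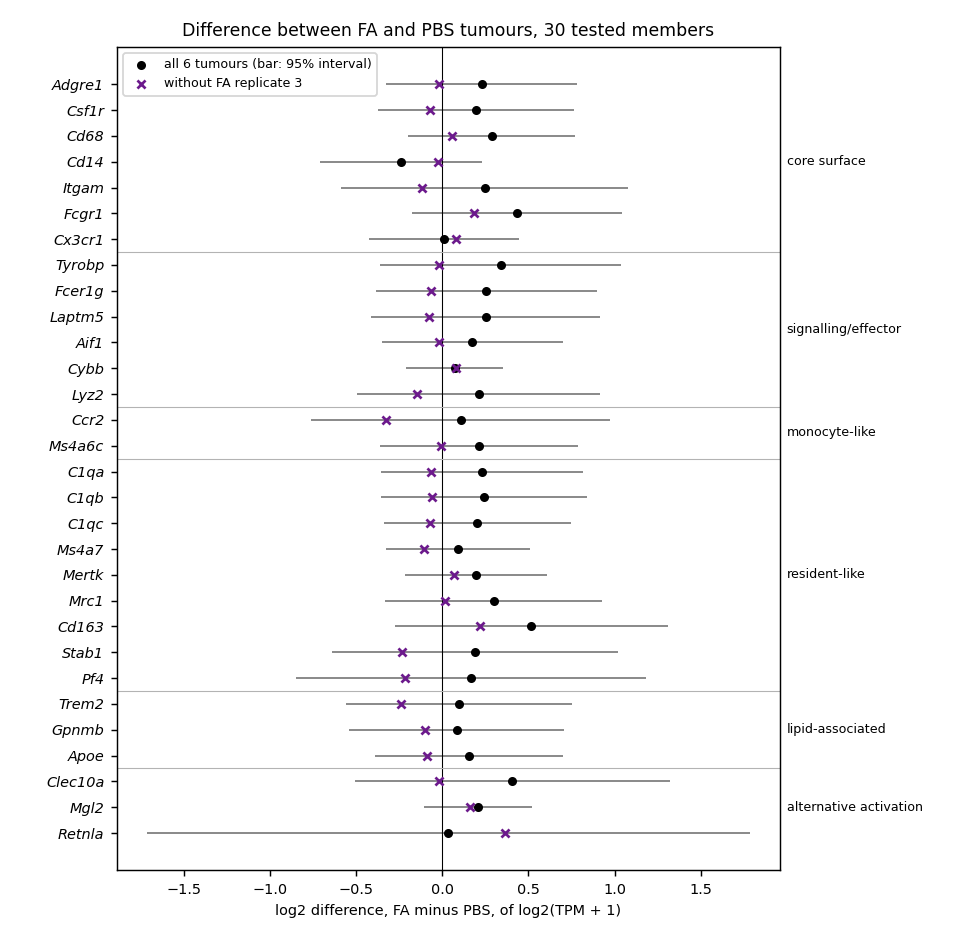
Log2 difference between FA and PBS tumours for the 30 tested genes, with its 95% interval (dots and bars, 3 against 3 tumours), and the same difference without FA replicate 3 (crosses). Every interval includes 0, and most crosses lie close to 0 or below it.

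Among the core surface markers, 6 of 7 had a positive difference, with a median of 0.23, or -0.02 without FA replicate 3. Adgre1 (ENSMUSG00000004730), which encodes F4/80, was at 10.1, 11.3 and 18.7 TPM in FA and 12.9, 10.3 and 9.77 TPM in PBS tumours. Only FA replicate 3 lay outside the PBS range on the high side, and the difference was 0.23 ± 0.23 (SE, n = 3 each; 95% interval from -0.32 to 0.78). Csf1r (ENSMUSG00000024621), the receptor that macrophages need to survive, stood at 28.9, 35.3 and 56.1 TPM against 38.9, 32.4 and 30.1 TPM. Its difference was 0.19 ± 0.24, and -0.07 without FA replicate 3. Cd68, a lysosomal membrane glycoprotein, was at 48.9 ± 14.9 and 39.0 ± 4.46 TPM (SD, n = 3 each).

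Fcgr1, the high-affinity Fc receptor for IgG, had the smallest unadjusted p of the 30. It was at 6.49, 8.14 and 12.9 TPM in FA and 8.06, 5.32 and 5.75 TPM in PBS tumours, so FA replicate 1 lay within the PBS range and FA replicate 2 just above it. The difference was 0.43 ± 0.26 with all tumours and 0.18 without FA replicate 3. Itgam, the integrin alpha M chain (CD11b), was at 15.7, 10.7 and 28.7 TPM against 18.2, 11.0 and 14.1 TPM. In the GENCODE M21 transcripts, 66.3% of the 50-base words of Itgam also occur in Gm49368, which was listed at 0.03 to 0.45 TPM, so how reads were split between them bears on Itgam.

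Cd14 and Cx3cr1 did not follow the other markers. Cd14, the co-receptor for bacterial lipopolysaccharide, was at 126, 109.9 and 74.9 TPM in FA and 107, 138 and 117 TPM in PBS tumours. FA replicate 3, which was the highest for most members, was the lowest for Cd14, as for 37.3% of all genes. Cd14 stood there at 0.642 times the median of the other 5. The difference was -0.24 ± 0.20, and -0.03 without that tumour. Cx3cr1, the fractalkine receptor of patrolling monocytes and many tissue macrophages, stood at 9.47, 13.2 and 9.62 TPM against 11.6, 8.40 and 12.1 TPM. Its groups lay on each other, with a difference of 0.01 ± 0.18.

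Of the 6 signalling and effector genes, 5 were highest in FA replicate 3. Tyrobp (ENSMUSG00000030579) and Fcer1g are small membrane adaptors whose ITAM tyrosines recruit the kinase SYK. Tyrobp was at 85.9, 91.3 and 188 TPM in FA and 101, 81.1 and 88.2 TPM in PBS tumours. Fcer1g was at 54.4, 59.2 and 112 TPM against 68.7, 56.4 and 54.2 TPM. In both, the other FA tumours lay within the PBS range, and the differences were 0.34 ± 0.29 and 0.26 ± 0.27. Laptm5, a lysosomal protein of leukocytes, was at 54.3 ± 24.0 and 42.9 ± 4.21 TPM, and Aif1 (IBA1), an actin-binding protein, at 18.6 ± 5.78 and 15.8 ± 0.936 TPM. Lyz2, the lysozyme of myeloid cells, was the second most abundant member at 568, 611 and 1239.8 TPM in FA and 761, 598 and 609 TPM in PBS tumours. It shares 15.4% of its 50-base words with its paralog Lyz1, which was at 4.61 to 11.7 TPM.

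Cybb, the catalytic subunit of the phagocyte NADPH oxidase, was level across all tumours, at 12.1, 13.9 and 12.8 TPM in FA and 14.1, 11.3 and 11.5 TPM in PBS tumours (difference 0.07 ± 0.12). Cyba, its membrane partner, was as level, with 1.07 times the median of the other tumours in FA replicate 3. Cytosolic partners of the enzyme were not. Ncf1, Ncf4 and Rac2 stood in FA replicate 3 at 2.57, 2.04 and 2.16 times the median of the other 5 tumours. Cd63, a lysosomal tetraspanin of most cells, averaged 419.9 and 434 TPM. None of these genes was called.

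Of the 4 monocyte-like genes, 2 were at levels near that of Adgre1 and 2 were barely detected. Ccr2 was at 7.98, 8.87 and 22.2 TPM in FA and 13.3, 9.80 and 9.72 TPM in PBS tumours, so both other FA tumours were below every PBS tumour. Its difference was 0.11 ± 0.36 with all tumours and -0.33 without FA replicate 3. Ms4a6c, a tetraspan protein of monocytes, was at 11.3, 16.3 and 21.95 TPM against 16.5, 11.8 and 13.1 TPM, and it shares 5.85% of its words with Ms4a6b, at 6.97 to 14.0 TPM. Ly6c2, the classical monocyte antigen, averaged under 1 TPM and was not tested, with 0.31, 0.33 and 2.26 TPM in FA and 1.17, 0.12 and 0.39 TPM in PBS tumours. Chil3 (Ym1), a chitinase-like protein, was not tested either, with 0.31, 0.26 and 1.76 TPM against 1.71, 0.91 and 0.56 TPM. Ccr2, Ly6c2 and Chil3 shared their 2 highest tumours, FA replicate 3 and then PBS replicate 1, which were also the 2 highest for the summed members. For Chil3 these 2 values were nearly equal. Values of Ly6c2 and Chil3 are uncertain at these low levels. Ly6c2 shares 13.9% of its words with Ly6c1, an endothelial gene at 15.9 to 64.5 TPM. Chil3 shares 16.9% with Chil4, which was at 0 TPM in FA replicate 3 and at up to 2.63 TPM elsewhere. The order of tumours for Chil3 may therefore depend on how reads were split.

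All 9 resident-like genes had a positive difference, with a median of 0.20, and 3 of the 9 without FA replicate 3, with a median of -0.06. C1qa, C1qb and C1qc encode the chains of C1q, the recognition part of the classical complement pathway, and together formed most of the group's signal. C1qa (ENSMUSG00000036887) was at 183, 189.9 and 344 TPM in FA and 219, 197 and 172 TPM in PBS tumours, with a difference of 0.23 ± 0.25. C1qb was at 148, 163 and 293 TPM against 181, 161 and 148 TPM. C1qc was at 109, 119 and 200.5 TPM against 129, 124 and 107 TPM. The chains kept the order C1qa, C1qb, C1qc in every tumour, and their proportions were nearly constant. The ratio of C1qa to C1qc was 1.66 ± 0.0637 in FA and 1.63 ± 0.0614 in PBS tumours, and that of C1qb to C1qc 1.4 ± 0.0536 and 1.36 ± 0.0601 (SD, n = 3 each).

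The scavenger receptors of the group varied more. Mrc1 (CD206), the mannose receptor, was at 26.3, 22.9 and 45.1 TPM in FA and 30.4, 21.9 and 21.5 TPM in PBS tumours. Cd163, the haemoglobin receptor, had the largest difference of the 30 members, 0.52 ± 0.33, with an interval from -0.28 to 1.31. It stood at 5.93, 3.86 and 9.73 TPM against 4.12, 5.52 and 2.70 TPM, and the difference was 0.22 without FA replicate 3. Stab1, a scavenger receptor that sinusoidal endothelium also makes, was at 45.5, 42.2 and 108 TPM against 58.9, 52.4 and 45.0 TPM. Beside it, 5 endothelial markers summed to 255 TPM in FA replicate 3 and to 69.6 to 124 TPM in the other tumours, and their part in the Stab1 values was not tested.

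Mertk, a kinase receptor for dying cells, was at 5.29 ± 1.14 and 4.46 ± 0.575 TPM, and Ms4a7 at 18.9 ± 4.96 and 17.3 ± 0.902 TPM. Pf4, a chemokine of platelets and of some macrophages, ran from 43.8 to 123 TPM in FA and from 39.5 to 83.9 TPM in PBS tumours. Replicate 2 was the lowest in both groups for Pf4, and the groups overlapped, with FA replicate 3 above every PBS tumour.

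Of the lipid-associated genes, Apoe was the most abundant member of all, at 731, 1021 and 1437.5 TPM in FA and 879.95, 1004 and 875 TPM in PBS tumours. Apolipoprotein E carries cholesterol out of lipid-laden macrophages. Trem2 (ENSMUSG00000023992), the lipid-sensing receptor, was at 13.8, 15.1 and 30.1 TPM in FA and 18.1, 17.4 and 16.3 TPM in PBS tumours. FA replicate 3 was thus above, and both other FA tumours were below, the whole PBS range. Without FA replicate 3 the difference of Trem2 was -0.24, with an unadjusted p of 0.0332 by limma (adjusted p = 1), and it was the only member under 0.05, where 2.90% of all genes were. Gpnmb, a lysosomal glycoprotein, was at 2.43 to 5.44 TPM in the 6 tumours.

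Trem2 was also set against its adaptor. The ratio of Trem2 to Tyrobp was 0.161, 0.165 and 0.160 in FA tumours, against 0.179, 0.215 and 0.184 in the PBS group, so the groups did not overlap, and FA replicate 3 did not stand apart. This was 1 of 18 ratios computed, chosen after values were seen. Over all 435 pairs of tested members the groups did not overlap for 8 pairs, 1.84%.

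Alternatively activated genes did not move as one. Clec10a (MGL1) and Mgl2 are neighbouring paralogs that encode lectins for galactose-type sugars. Clec10a was at 8.90, 10.3 and 24.6 TPM in FA and 10.5, 12.3 and 6.98 TPM in PBS tumours. Mgl2 was far more even, at 23.5, 27.8 and 28.3 TPM against 25.4, 24.1 and 19.3 TPM, with a difference of 0.21 ± 0.13. The ratio of Clec10a to Mgl2 was 0.869 in FA replicate 3 and between 0.363 and 0.51 in the other 5. The pair shares 270 of the 50-base words, 8.49% of those of Clec10a and 12.2% of those of Mgl2, so the split between them is uncertain.

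Retnla (RELM-alpha, FIZZ1), a secreted protein induced by interleukin-4 and interleukin-13, differed most between tumours of 1 group. It was at 33.1, 7.36 and 7.56 TPM in FA and 11.7, 28.5 and 5.08 TPM in PBS tumours. FA replicate 1 and PBS replicate 2 were high and the other 4 low, across both treatments. The difference was 0.04 ± 0.73, with an interval from -1.71 to 1.79, the widest of the members. Chil3, induced by the same cytokines, was at 0.31 and 0.91 TPM in those 2 tumours, but it was barely detected and not tested, so the 2 genes cannot be compared. Mgl2 and Mrc1, of the same induced set, were at 23.5 and 24.1 TPM and at 26.3 and 21.9 TPM there. Both genes lay within the range of the other 4 tumours. No other gene of GENCODE M21 shared 1% or more of the 50-base words of Retnla.

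How closely a member followed the rest was measured as its correlation over the 6 tumours with the median of the other 29 members, each centred on its mean, as a description in which FA replicate 3 carries much of the weight. It was 0.95 or above for 14 members, with 1.00 for Fcer1g and C1qb and 0.99 for Adgre1, Laptm5, Lyz2, C1qa and C1qc. The lowest values were 0.31 for Cybb, -0.20 for Cx3cr1, -0.33 for Retnla and -0.93 for Cd14. The centred median of the members was -0.22, -0.11 and 0.67 on the log2 scale in FA replicates 1 to 3 and 0.04, -0.15 and -0.24 in PBS replicates 1 to 3. Between tumours of 1 group, the median SD of log2(TPM + 1) over the members was 0.49 in FA and 0.19 in PBS, against 0.18 and 0.11 over all genes. Of the 30 members, 12 were lowest in PBS replicate 3 (15.7% of all genes), 9 in FA replicate 1 (12.8%), 5 in PBS replicate 2 (17.3%) and 3 in FA replicate 2 (9.39%). Within the PBS group, PBS replicate 1 was the highest for 21 members, against 44.7% of all genes. Among the 5 tumours other than FA replicate 3, the highest value was a median of 1.38 times the lowest for the members and 1.24 times for all genes.

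**Figure D3:**
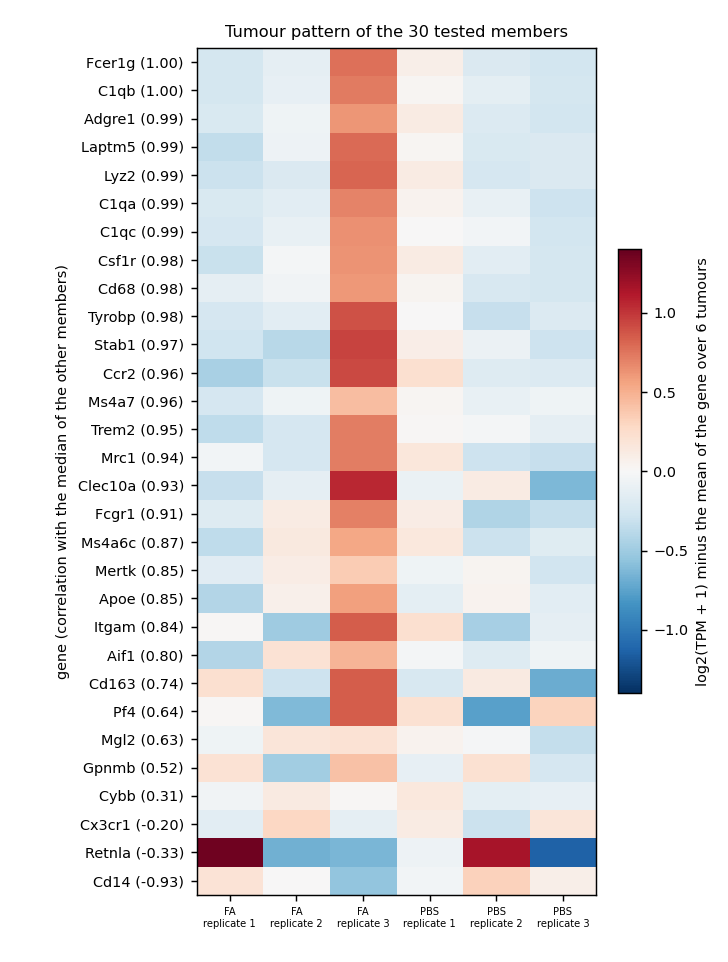
Log2(TPM + 1) of the 30 tested genes in each tumour, centred on the mean of each gene and ordered by the correlation given in brackets. The column of FA replicate 3 is high for most genes, while Retnla is high in FA replicate 1 and PBS replicate 2 and Cd14 is low in FA replicate 3.

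Resident-like and monocyte-like genes were then compared within each tumour, as the mean log2(TPM + 1) of each group. Because maturing monocytes also gain C1q and scavenger receptors, the scores cannot tell resident macrophages from mature monocyte-derived ones. Mrc1, scored as resident-like, and Chil3, scored as monocyte-like, are also both induced by interleukin-4. Resident-like scores were 5.24, 5.16 and 6.06 in FA tumours, against 5.40, 5.22 and 5.13 in the PBS group. Monocyte-like scores were 1.89, 2.04 and 3.06 in FA tumours, against 2.63, 2.05 and 2.09 in the PBS group. Both were highest in FA replicate 3 and next in PBS replicate 1. The resident-like minus monocyte-like difference was 3.35, 3.12 and 3.0 in FA tumours, against 2.77, 3.16 and 3.04 in the PBS group, or 3.16 ± 0.175 and 2.99 ± 0.202 (SD, n = 3 each). The groups overlapped, and the gap of 0.16 was under the SD of either group. It was 0.24 without FA replicate 3, 0.36 when medians replaced means, and 0.08 when only genes of at least 1 TPM were used. The ratio of Ccr2 to Cx3cr1, receptors of classical and of patrolling monocytes, was 2.31 in FA replicate 3 and between 0.672 and 1.17 elsewhere.

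**Figure D4:**
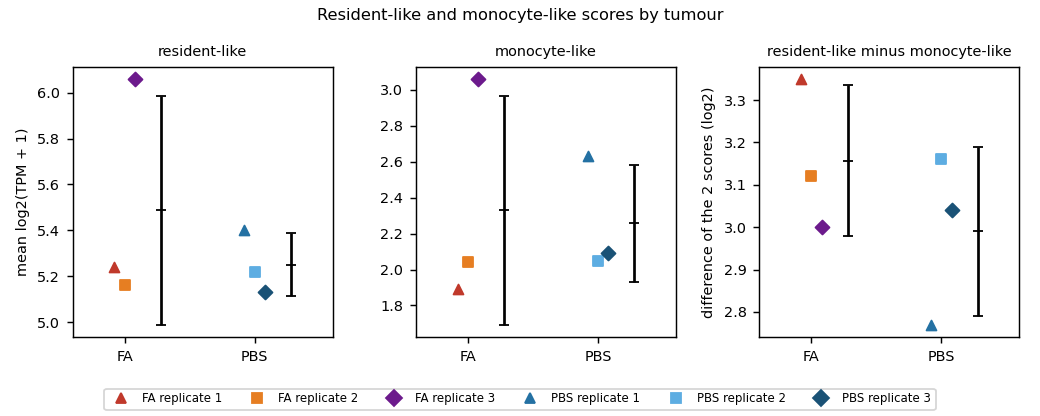
Mean log2(TPM + 1) of the 9 resident-like and the 4 monocyte-like genes in each tumour, and their difference; symbols are tumours and bars are mean and SD of 3. FA replicate 3 is highest in both scores, and the differences of the groups overlap.

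Ptprc (CD45), found on all leukocytes, was at 7.18, 9.48 and 13.3 TPM in FA and 9.50, 6.75 and 7.8 TPM in PBS tumours. Relative to Ptprc, the groups overlapped for 3 of the markers. The ratio of Adgre1 to Ptprc was 1.34 ± 0.125 in FA and 1.38 ± 0.135 in PBS tumours, that of Csf1r 3.99 ± 0.259 and 4.25 ± 0.49, and that of C1qa 23.8 ± 3.28 and 24.7 ± 3.86 (SD, n = 3 each). FA replicate 3 lay within the range of the other 5 tumours in each of these ratios, at 1.41, 4.23 and 26.0. Other members left the range of the other 5 tumours. Relative to Ptprc, Fcgr1, Tyrobp, Fcer1g, Laptm5, Lyz2, Ly6c2, Ccr2, Stab1 and Clec10a were higher in FA replicate 3 than in any other tumour. Fcer1g and Clec10a were so only slightly. Cd14, Cx3cr1, Cybb, Mgl2 and Retnla were lower there than in any other tumour.

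The other genes of the lineage were taken from lists of known members of each class. None was called in either direction, so the counts are of signs only, to be read beside the 50.7% of all genes with a positive difference. Of the growth factors and chemokines that feed macrophages, 8 of 10 tested were positive, with a median of 0.11, and 5 of 10 without FA replicate 3, with a median of 0.02. Csf1 was at 21.96, 22.8 and 29.4 TPM in FA and 26.0, 17.2 and 22.9 TPM in PBS tumours. Il34, the other ligand of CSF1R, averaged 27.9 and 25.9 TPM, with a difference of 0.04 without FA replicate 3. Ccl2, the main ligand of CCR2, was at 17.2, 12.6 and 37.2 TPM in FA and 29.4, 9.38 and 16.5 TPM in PBS tumours. Its 2 highest values were in the same 2 tumours as those of Ccr2, which were also the 2 highest for the fibroblast, endothelial and muscle sums. Csf2 (GM-CSF) reached 9.41 TPM in FA replicate 3 and lay at 1.81 to 2.97 TPM in the others.

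Of the transcription factors, 10 of 13 were positive, with a median of 0.08, and 5 of 13 without FA replicate 3, with a median of -0.05. Spi1 was at 11.2, 16.7 and 26.7 TPM in FA and 16.6, 11.4 and 12.5 TPM in PBS tumours. It was highest in FA replicate 3, as most members were, and its difference without that tumour was 0.04. Maf, a factor of mature macrophages, was at 11.0 and 9.73 TPM on average, with a difference of 0.07 without FA replicate 3. Bhlhe40, which is not limited to myeloid cells, was lower, at 124 and 164 TPM on average. Its difference was -0.45 (adjusted p = 1 by limma), and -0.39 without FA replicate 3. Of the phagocytic and scavenger receptors, 12 of 12 tested were positive, with a median of 0.28, or -0.04 without FA replicate 3. The Fc receptor genes Fcgr3 and Fcgr4 averaged 79.7 and 7.71 TPM in FA and 61.8 and 5.81 TPM in PBS tumours. Axl, which also occurs on tumour cells, averaged 175 and 158 TPM. Without FA replicate 3 the differences of Fcgr3, Fcgr4 and Axl were -0.03, -0.01 and 0.10.

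Adaptors and signalling partners were positive for 12 of 12, with a median of 0.28, or -0.03 without FA replicate 3. Ptpn6 (SHP-1), the phosphatase of inhibitory receptors, averaged 26.8 and 21.9 TPM. Inpp5d (SHIP1), a lipid phosphatase that restrains TREM2 and Fc receptor signals, averaged 9.85 and 6.56 TPM. Fyb, an adaptor of leukocytes, averaged 15.1 and 10.9 TPM. Without FA replicate 3 the differences of Ptpn6, Inpp5d and Fyb were 0.16, 0.21 and 0.16. The oxidase and lysosome list had 6 of 9 positive, with a median of 0.18, or -0.08 without FA replicate 3. Further lipid-associated genes were positive for 7 of 12, with a median of 0.10, and for 4 of 12 without FA replicate 3, with a median of -0.01. Spp1 (osteopontin), which epithelial tumour cells also make, was at 13010 and 11246 TPM in FA replicates 1 and 2, at 6930.0 TPM in FA replicate 3, and at 12282 to 13190.2 TPM in PBS tumours. It was thus lowest in FA replicate 3, as Cd14 was. Abcg1, a cholesterol exporter, averaged 5.12 and 3.36 TPM, and the cathepsin gene Ctsl 545 and 504.5 TPM. Without FA replicate 3 the differences of Abcg1 and Ctsl were 0.11 and 0.03.

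Inflammatory and arginine genes had 8 of 10 positive, with a median of 0.10, or -0.26 without FA replicate 3. Arg1, arginase 1, was at 87.1, 50.2 and 221 TPM in FA and 98.8, 65.6 and 123 TPM in PBS tumours. Nos2, the inducible nitric oxide synthase, reached 8.85 TPM in FA replicate 3 and lay at 0.83 to 1.86 TPM in the others. Both enzymes use arginine and mark opposite poles of macrophage activation in textbooks, and both were highest in the same tumour. Il1rn, the interleukin-1 receptor antagonist, was at 28, 30.7 and 61.9 TPM in FA and 25.9, 26.5 and 17.0 TPM in PBS tumours. All 3 FA values were above all PBS values, as for 2.48% of all genes, and the difference of 0.71 was not called (adjusted p = 1 by limma). Without FA replicate 3 it was 0.36. Vegfa averaged 149 and 183 TPM, but its highest value, 197 TPM, was in FA replicate 1. Il1a averaged 6.93 and 4.37 TPM, with 12.5 TPM in FA replicate 3. Without that tumour the differences of Vegfa and Il1a were -0.24 and -0.07. Other monocyte genes were positive for 7 of 10, with a median of 0.07, and for 3 of 10 without FA replicate 3, with a median of -0.08. Plac8 averaged 983 and 1052 TPM and Fn1, fibronectin, 1201 and 1297 TPM, levels that cells other than monocytes can supply. Without FA replicate 3 the differences of Plac8 and Fn1 were -0.06 and -0.09. Ace was below every PBS tumour in all 3 FA tumours, at 34.9 to 40.4 against 40.7 to 51.0 TPM, as for 2.22% of all genes. Its difference was -0.25 (adjusted p = 1 by limma), and -0.19 without FA replicate 3.

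**Figure D5:**
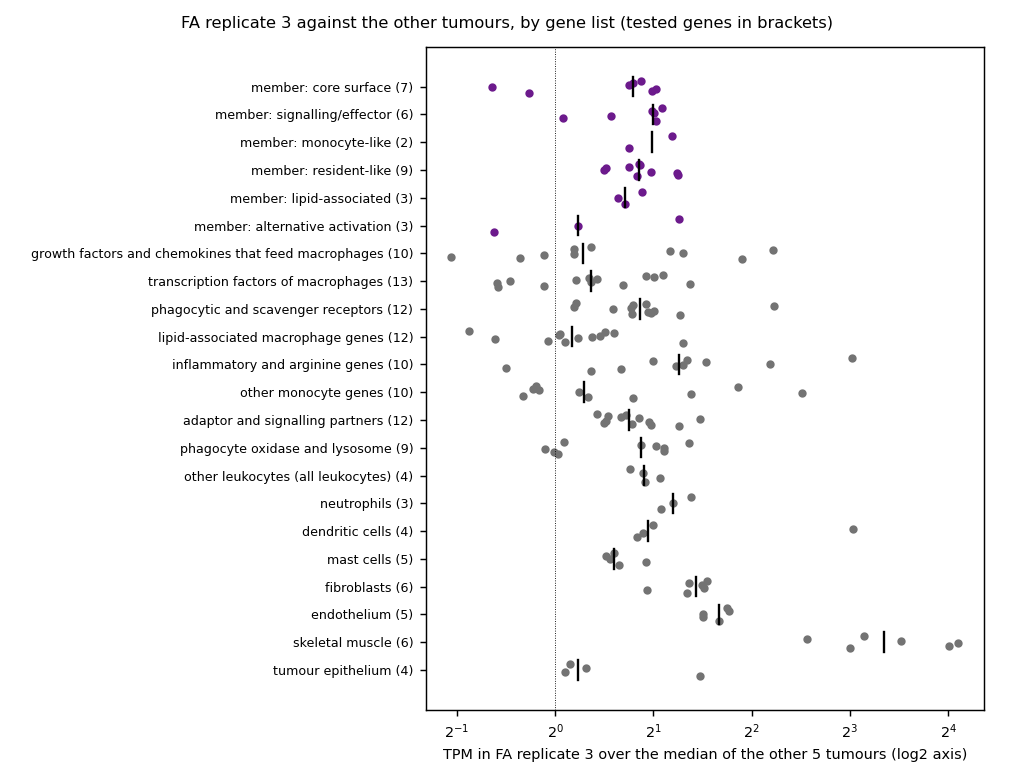
TPM in FA replicate 3 divided by the median of the other 5 tumours, one point per tested gene, for the 6 member groups and the companion lists; vertical bars are list medians. The highest list medians are those of muscle, endothelial and fibroblast genes, at 10.2, 3.18 and 2.70, and single genes of other lists lie above the fibroblast and endothelial points.

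Markers of other cells moved in the same tumour. In FA replicate 3 the ratio to the median of the other 5 tumours had a median of 10.2 for 6 skeletal muscle genes, 3.18 for 5 endothelial genes, 2.70 for 6 fibroblast genes, 2.30 for 3 neutrophil genes, 1.93 for 4 dendritic cell genes and 1.18 for 4 tumour epithelial genes. Col1a1, the main fibrillar collagen, was at 451, 574 and 1679.7 TPM in FA and 808, 378 and 616 TPM in PBS tumours. Krt19, the ductal keratin, was at 1177, 1248 and 1311.5 TPM against 1071, 1186 and 1089.6 TPM. PBS replicate 1, second to FA replicate 3 in the summed member level, was also second in the fibroblast (3496 TPM), endothelial (124 TPM) and muscle (133 TPM) sums. Neutrophil markers summed to 16.4 to 40.8 TPM in FA and 16.5 to 17.7 TPM in PBS tumours, with Ly6g listed at 0 in 5 tumours. Dendritic cell markers summed to 14.2 to 31.7 and 13.6 to 18.1 TPM, with none listed at 0 in any tumour. The 7 lymphocyte markers were all under the filter and summed to 0.68 to 2.89 and 0.89 to 1.69 TPM, with Ncr1 and Cd8a at 0 in 1 tumour each. Mast cell markers summed to 18.7 to 68.8 and 27.8 to 39.3 TPM, and were highest in FA replicate 2. The part of these cells in the macrophage values was not tested.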

How the data were processed

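RNA of 6 subcutaneous KPC1242 tumours (3 FA, 3 PBS) was measured, 1 stranded total RNA library each, from 4 µg of RNA with an integrity number above 8 and 12 PCR cycles, per the labels' protocols. The authors deposited TPM for each gene and tumour. FastQC, STAR, RSEM and featureCounts appear in the submitters' processing notes, without versions or roles. The build is not given in the sources used here, nor is the annotation. Columns were matched to tumours by the sample descriptions, whose prefix is shared within each treatment, so what it marks cannot be told apart from treatment. TPM keeps no depth, so no counting interval is given.

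Genes averaging 1 TPM or more were fitted on the log2(TPM + 1) scale with limma 3.58.1 (R 4.3.3), a spread that follows the mean, no covariate, and Benjamini-Hochberg adjustment over all 15023 genes at 0.05. On simulated data the fit recovered 40.3%, 62.7% and 89.4% of changes of 1.5, 2 and 4 fold, so it misses many real changes. The changes were put into genes drawn at random from all tested genes, each with its own spread. The median SD of log2(TPM + 1) was larger over the members (0.49 in FA and 0.19 in PBS) than over all genes (0.18 and 0.11). These rates therefore do not carry over to the members, for which recovery was not simulated. Noise was drawn independently for each gene there, without a deviation shared across genes such as that of FA replicate 3. Scores are means over members and carry no p. Shared 50-base words were counted on the same strand in GENCODE M21 transcripts, which may not be the annotation used by the authors. Promoters are RefSeq sequences of GRCm38.p6, matched by symbol.

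The members, the lists and the tests were chosen with earlier results of these data known. Named genes are all members and, from the companion lists, near copies, up to 3 genes a list by the smallest unadjusted p (for other cell types mostly given as list values), and Ptprc, Csf1, Il34, Ccl2, Spi1, Spp1, Arg1, Nos2, Krt19 and Col1a1. Genes outside this rule (Gm49368, Cyba, Rac2, Ly6g, Ncr1 and Cd8a) were chosen after their values were seen. Values of a few genes that the rule takes are left out. Alternatives covered pseudocounts, filters, scaling, tumour weights, the variance trend, a replicate term and leaving out each tumour.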

Additional observations from a re-analysis of the deposited data

How the results depend on the processing

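No alternative gave a member an adjusted p under 0.05 or under 0.1. The smallest adjusted p of a member in any setting was 0.83 by limma. Over all genes the count of calls was 0, rose to 2 without the filter (Gm22728, Gm24045), and was 0 to 1 when 1 tumour was left out (Snord14d, without FA replicate 3). The median difference of the members was 0.20 to 0.21 under the other pseudocounts, filters and scalings and 0.04 with array weights, and leaving out 1 tumour gave -0.04 to 0.39, with the lowest value without FA replicate 3. The resident-like minus monocyte-like difference was 0.36 with medians in place of means, and 0.05 to 0.25 when 1 tumour was left out. Array weights turned Itgam (-0.07), Lyz2 (-0.05), Ccr2 (-0.20), Ms4a7 (-0.05), Stab1 (-0.10), Pf4 (-0.26), Trem2 (-0.13) and Gpnmb (-0.03) below 0, and quantile normalization did so for Cx3cr1 (-0.01). Leaving out 1 tumour changed the sign of 22 members, 20 of them without FA replicate 3, with ranges of -0.02 to 0.39 for Adgre1, -0.07 to 0.40 for Csf1r, -0.12 to 0.55 for Itgam, -0.14 to 0.10 for Cx3cr1, -0.02 to 0.54 for Tyrobp, -0.07 to 0.45 for Fcer1g, -0.08 to 0.49 for Laptm5, -0.02 to 0.42 for Aif1, -0.15 to 0.42 for Lyz2, -0.33 to 0.36 for Ccr2, -0.01 to 0.44 for Ms4a6c, -0.06 to 0.39 for C1qa, -0.06 to 0.43 for C1qb, -0.07 to 0.37 for C1qc, -0.11 to 0.23 for Ms4a7, -0.24 to 0.43 for Stab1, -0.22 to 0.52 for Pf4, -0.24 to 0.29 for Trem2, -0.10 to 0.35 for Gpnmb, -0.09 to 0.40 for Apoe, -0.02 to 0.67 for Clec10a and -0.63 to 0.62 for Retnla. The replicate number of the titles, as a replicate block, gave a median of 0.20 and 0 calls. Deviations of tumours with the same number from the mean of their group correlated over genes at -0.21, 0.05 and -0.02. Each mean is of 3 tumours and FA replicate 3 stands apart, so these values cannot tell whether the numbers pair tumours. The median difference of all genes stayed between -0.011 and 0.016. The limits that read depth sets are unknown, and Ly6c2 and Chil3 were too low to test.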

Other observations

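Among the near copies of members, Ms4a6d and Ms4a4a, tetraspan genes beside Ms4a6c and Ms4a7, were at 43.4 and 26.8 TPM in FA replicate 3 and at 17.0 to 21.8 and 10.6 to 15.7 TPM in the other tumours. Cd209a, a lectin of monocyte-derived dendritic cells, reached 6.48 TPM in FA replicate 3 and lay at 0.55 to 1.99 TPM in the others. Chil4 was listed at 0 in FA replicate 3, where Chil3 was highest, and at 0.45 to 2.63 TPM in the other tumours. Retnlb was listed at 0 in all 6 tumours.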
